A study of Mus musculus with 34 samples.

Results

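Preadipocyte and mesenchymal progenitor markers were followed through adipogenesis of brown preadipocytes. The markers are 10 genes taken from a named list, *Pdgfra*, *Pdgfrb*, *Ly6a*, *Cd34*, *Thy1*, *Sox9*, *Gata2*, *Gata3*, *Dpp4*, and *Cd24a*. All 10 were found among the 23109 genes of the deposited RNA-Seq files. Each gene was represented by its RefSeq transcript with the highest mean RPKM (mapped reads per kilobase of transcript, scaled to library size) over the 14 libraries. *Dpp4* had at most 5 reads in any library, so changes were counted over the other 9 genes.

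Adipogenesis turns a fibroblast-like precursor into a lipid-storing adipocyte. Precursors in fat tissue are recognised by surface proteins such as the PDGF receptors PDGFRα and PDGFRβ, Sca-1 (the product of *Ly6a*), CD34, and Thy-1. Sox9, GATA2, and GATA3 are transcription factors that are expressed in precursors and known to restrain adipocyte differentiation. CD24 and DPP4 are surface proteins used to sort early progenitors.

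The cells were brown preadipocytes of C57BL/6J background, isolated from the interscapular brown adipose tissue of newborn pups and immortalized with SV40T. By the sample labels, every library came from GR-flox/flox cells, which carry a floxed glucocorticoid receptor gene, and the protocol in the labels describes an empty or a Cre retrovirus. The methods instead describe a retrovirus that delivered histone H3.3, either WT or with the K36M mutation that lowers H3K36 methylation, and the cells are called WT and K36M here. RNA-Seq covered WT and K36M cells at D0, D2, and D7 of adipogenesis, and Ctrl cells (control shRNA) and *Nsd2* KD cells (shRNA against the H3K36 methyltransferase Nsd2) at D0 and D2. It also covered WT and K36M cells that carried ectopic PPARγ and received DMSO or the PPARγ ligand rosiglitazone (Rosi). The labels put the DMSO libraries at time 0 and the Rosi libraries at 24 h, whereas the paper describes the same duration for DMSO and Rosi. If the labels hold, ligand and time cannot be told apart. Induction medium held insulin, T3, IBMX, dexamethasone, and indomethacin for 2 days, after which only insulin and T3 were kept, so the day and the medium cannot be told apart either. The cells are an immortalized line, and the RPKM of a gene does not show which histone was expressed.

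Each condition had 1 library, so no difference below has a replicate check or a p-value. Mapped reads ranged from 12213559 to 24365867 per library. Ratios are given with 95% counting intervals made from the reads recovered behind each RPKM, which compare 2 libraries and cover counting error only. A gene was called lower or higher at a ratio over 2-fold, the threshold used in the study. In such bulk samples, fewer cells of a type and less RNA per cell cannot be told apart. The knocked-down gene *Nsd2* stood at 19.9 RPKM at D0 and 29.0 RPKM at D2 in Ctrl cells, compared with 5.85 and 7.01 RPKM in KD cells.

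The labelled cell type was checked against its markers. The 9 preadipocyte or mesenchymal markers, which include some of the counted genes, summed to between 184 and 3700 RPKM. Of these, *Col1a1* and *Vim* were at 13.7 RPKM or more and 134 RPKM or more in every library. In KD cells at D2 only 6 of the 9 reached 1 RPKM, with *Pdgfra* at 0.354, *Cd34* at 0.322, and *Thy1* at 0.816 RPKM. Markers of other cell types were low, with summed RPKM of 0.131 to 2.47 over 5 endothelial markers, 0.0212 to 3.17 over 6 blood cell markers, and 0.04 to 4.03 over 5 myogenic markers. *Cdh5*, *Emcn*, *Ptprc*, and *Pax7*, which define these types, were at or below 0.0801 RPKM everywhere. The highest values in these lists were 2.08 RPKM for *Tek*, 2.95 RPKM for *Csf1r*, and 3.84 RPKM for *Des*. The 6 chondrocyte markers summed to between 0.722 and 41.7 RPKM, with *Col2a1* at up to 39.9 RPKM, and *Acan* did not exceed 0.1 RPKM. The 5 mural markers summed to between 16.2 and 1380 RPKM, and *Acta2*, the smooth muscle actin gene that myofibroblasts also express, ranged from 5.41 to 1370 RPKM. *Ucp1*, the defining gene of thermogenic brown adipocytes, reached at most 0.194 RPKM and *Cidea* at most 0.0973 RPKM, also at D7. The adipocyte genes *Fabp4* and *Adipoq* reached 2640 and 287 RPKM at D7 in WT cells, compared with 143 and 21.0 RPKM in K36M cells.

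Promoter sequences of RefSeq (GRCm38.p6) were found for 5 of the 10 genes (*Pdgfra*, *Cd34*, *Gata2*, *Gata3*, and *Dpp4*). The 250 bases before the start are shown, 5′ to 3′ on the strand of the gene, for the gene whose fall by D2 was missing in K36M cells and for the GATA genes that moved in opposite directions by D2 in WT cells. Capitals mark each CG dinucleotide.
Pdgfra, chr5:75152001-75152250, plus strand: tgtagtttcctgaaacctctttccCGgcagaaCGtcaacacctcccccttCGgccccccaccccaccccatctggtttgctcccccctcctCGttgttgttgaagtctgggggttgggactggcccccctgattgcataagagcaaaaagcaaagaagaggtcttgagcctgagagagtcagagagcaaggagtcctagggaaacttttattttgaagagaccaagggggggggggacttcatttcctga
Gata2, chr6:88193641-88193890, plus strand: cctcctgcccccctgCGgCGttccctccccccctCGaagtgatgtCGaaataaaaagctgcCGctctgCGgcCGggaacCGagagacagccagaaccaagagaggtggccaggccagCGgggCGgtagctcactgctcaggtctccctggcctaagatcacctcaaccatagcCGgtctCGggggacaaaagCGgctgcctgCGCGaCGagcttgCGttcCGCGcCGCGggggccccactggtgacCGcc
Gata2, chr6:88198414-88198663, plus strand: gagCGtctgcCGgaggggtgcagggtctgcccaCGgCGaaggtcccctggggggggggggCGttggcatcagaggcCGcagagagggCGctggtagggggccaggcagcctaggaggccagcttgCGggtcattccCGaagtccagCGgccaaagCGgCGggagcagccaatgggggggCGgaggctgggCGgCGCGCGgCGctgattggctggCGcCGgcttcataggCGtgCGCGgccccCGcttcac
Gata3, chr2:9878601-9878850, minus strand: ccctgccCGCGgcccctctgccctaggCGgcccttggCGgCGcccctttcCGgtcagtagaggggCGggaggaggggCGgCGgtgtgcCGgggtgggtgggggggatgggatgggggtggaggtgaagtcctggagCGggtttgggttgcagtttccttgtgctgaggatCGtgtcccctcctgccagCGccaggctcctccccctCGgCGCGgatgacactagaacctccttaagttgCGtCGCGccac
The *Pdgfra* window held 4 CG dinucleotides, and 62.2% of the 32851 promoter windows of the same length held at least as many. The *Gata2* windows held 22 and 24 (14.8% and 12% of windows held at least as many) and the *Gata3* window held 19 (19.7%). The letters GATA with A or T before them and A or G after them, a common form of the GATA factor motif, were in none of these 4 windows on either strand, whereas 26.5% of all windows held such a match. The *Cd34* and *Dpp4* windows, which are not shown, each held 1 such match. CCAAT was found at 2 places in the later *Gata2* window and in none of the other 3, compared with 33.8% of all windows that held it.

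From D0 to D2 in WT cells, most of the progenitor markers fell. Of the 9 counted genes, 7 were over 2-fold lower and 1, *Gata3*, was over 2-fold higher at D2, while 25.2% of the 17591 genes above 0 were lower and 13.6% were higher. These shares, like those below, include genes with few reads, whereas *Dpp4* was left out of the 9. For the same comparison and threshold the paper reports smaller shares, both lower and higher. The median log2 ratio was -1.34 over the 9 genes and -0.04 over all genes above 0 in both libraries. All 5 surface markers named in the background as precursor proteins were lower at D2, together with *Sox9* and *Gata2*. *Cd24a* stayed within 2-fold.

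*Pdgfra* encodes PDGFRα, the receptor that defines fibroadipogenic progenitors (NM_011058, mm9 chr5:75548316-75594229). In WT cells D0 had 29.5 RPKM, D2 had 5.68 RPKM, and D7 had 48.7 RPKM, a log2 ratio of -2.38 (-2.49 to -2.26) from D0 to D2. The K36M libraries of the same days had 8.3, 11.2, and 53.8 RPKM. WT cells thus lost most of this transcript by D2, whereas K36M cells started low and did not fall. Ctrl cells had 22.9 RPKM at D0 and 4.98 at D2, and KD cells had 1.51 and 0.354. Of the 4 kinds of cells, K36M cells had the highest *Pdgfra* level at D2 and KD cells the lowest at either day.

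*Pdgfrb* encodes PDGFRβ, the receptor of mural and perivascular precursors (NM_008809, mm9 chr18:61204804-61244715). It fell from 70.7 to 11.6 RPKM by D2 in WT cells and was at 40.4 RPKM at D7. In K36M cells it fell from 41.0 to 14.5 RPKM by D2 and reached 124 RPKM at D7. At D7 the K36M library therefore held the highest *Pdgfrb* level of all 14, and the WT library was below its own D0 level. Ctrl cells fell from 64.0 to 17.6 RPKM and KD cells from 25.4 to 5.88 RPKM.

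*Ly6a* encodes Sca-1, a membrane-anchored protein used to sort mesenchymal progenitors (NM_010738, mm9 chr15:74825308-74828064). WT cells had 197 RPKM at D0, 31.3 at D2, and 169 at D7. K36M cells had 60.5, 86.3, and 408 RPKM at the same days. Ctrl cells fell from 67.7 to 11.7 RPKM and KD cells from 25.9 to 1.91 RPKM. *Ly6a* had the highest mean RPKM of the 10 genes, 94.8, and its range was the widest of the 9 counted genes, 213-fold between K36M cells at D7 and KD cells at D2. *Ly6a* belongs to a family of near-identical genes, and how reads shared between them were counted is not given in the sources used here. *Ly6c1*, a neighbour in that family, had 64.0, 6.17, and 27.1 RPKM over the days in WT cells and 9.43, 10.1, and 49.0 RPKM in K36M cells.

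*Thy1* encodes Thy-1, a surface protein of fibroblasts and mesenchymal stromal cells (NM_009382, mm9 chr9:43851467-43856662). It fell from 18.8 to 2.75 RPKM by D2 in WT cells, the largest decrease among the 9 genes, and was at 14.7 RPKM at D7. K36M cells had 37.7, 13.2, and 49.2 RPKM, above the WT library at each day. Ctrl cells fell from 41.3 to 10.8 RPKM and KD cells from 13.3 to 0.816 RPKM. *Thy1* differed between the control cells by amounts near those between K36M and WT cells, since the log2 ratio of Ctrl to WT was 1.14 (1.01 to 1.27) at D0 and 1.97 (1.64 to 2.32) at D2, against 1.01 and 2.27 for K36M to WT.

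*Cd34* encodes a sialomucin of progenitor and endothelial cells (NM_133654, mm9 chr1:196765015-196787486). It was low, with 3.13, 1.3, and 5.42 RPKM over the days in WT cells and 2.72, 1.81, and 9.73 RPKM in K36M cells. Ctrl cells had 0.657 RPKM at D0 and 0.523 at D2, from 32 and 26 reads, and KD cells had 1.7 and 0.322, from 73 and 14 reads. The WT, K36M, and KD libraries were all lower at D2 than at D0, and the interval of the Ctrl ratio, -1.13 to 0.46, included 0. Among endothelial markers, *Kdr* and *Tek* also had more RPKM at D0 than at D2 in WT cells (0.712 and 0.0384, and 0.563 and 0.0225), and the part of such cells in the *Cd34* level was not tested.

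*Sox9*, which encodes a transcription factor of chondrogenic and other progenitor cells, fell from 17.4 to 6.88 RPKM by D2 in WT cells and had 10.9 RPKM at D7 (NM_011448, mm9 chr11:112643538-112649074). K36M cells had 7.43, 4.27, and 5.83 RPKM, below the WT library at each day. Ctrl cells fell from 11.2 to 4.22 RPKM. KD cells started at 30.5 RPKM, the highest of all libraries, and reached 4.59 RPKM at D2, so the Ctrl and KD libraries were close at D2 and apart at D0.

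*Gata2* encodes a zinc finger factor of blood and preadipocyte precursors (NM_008090, mm9 chr6:88143885-88157024). In WT cells it declined over all days, from 11.1 to 4.81 and 3.13 RPKM. K36M cells kept 16.3, 11.7, and 9.97 RPKM. Ctrl cells had 11.0 RPKM at D0 and 6.59 at D2, and KD cells had 7.98 and 11.2. *Gata2* was the only counted gene whose RPKM was higher at D2 than at D0 in KD cells, although by less than 2-fold.

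*Gata3*, a related factor known for its role in lymphocytes and for restraining adipogenesis, peaked at D2 in WT cells, with 3.88, 9.17, and 2.06 RPKM (NM_008091, mm9 chr2:9778705-9811661). K36M cells had 3.15, 2.01, and 1.86 RPKM and showed no such peak. Ctrl cells had 2.57 and 2.47 RPKM and KD cells 5.57 and 5.42 RPKM at D0 and D2. The peak was thus present in the WT library and absent from the Ctrl library, and the log2 ratio of Ctrl to WT at D2 was -1.89 (-2.15 to -1.64).

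*Cd24a*, the gene of a surface protein of early adipocyte progenitors, had 2.06, 3.31, and 4.51 RPKM over the days in WT cells (NM_009846, mm9 chr10:43298975-43304068). K36M cells had 8.18, 10.2, and 2.48 RPKM, which placed them above WT cells at D0 and D2 and below them at D7. Ctrl cells had 4.93 and 4.04 RPKM and KD cells 13.4 and 9.17 RPKM at D0 and D2. *Cd24a* has near-identical copies in the mouse genome, so its values are uncertain for the same reason as those of *Ly6a*.

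*Dpp4* encodes a surface peptidase of interstitial progenitors (NM_010074, mm9 chr2:62168130-62250288). It had 3 reads at D0 in WT and in K36M cells, 5 reads at D0 in Ctrl cells, and 0 reads at D0 in KD cells. At D2 it had 0 reads in all 4 kinds of cells. WT cells had 2 reads at D7 and K36M cells had 0. A count of 0 allows up to 3 reads, which corresponds to between 0.0234 and 0.0466 RPKM, so no change of *Dpp4* was detectable at this depth.

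**Figure D1:**
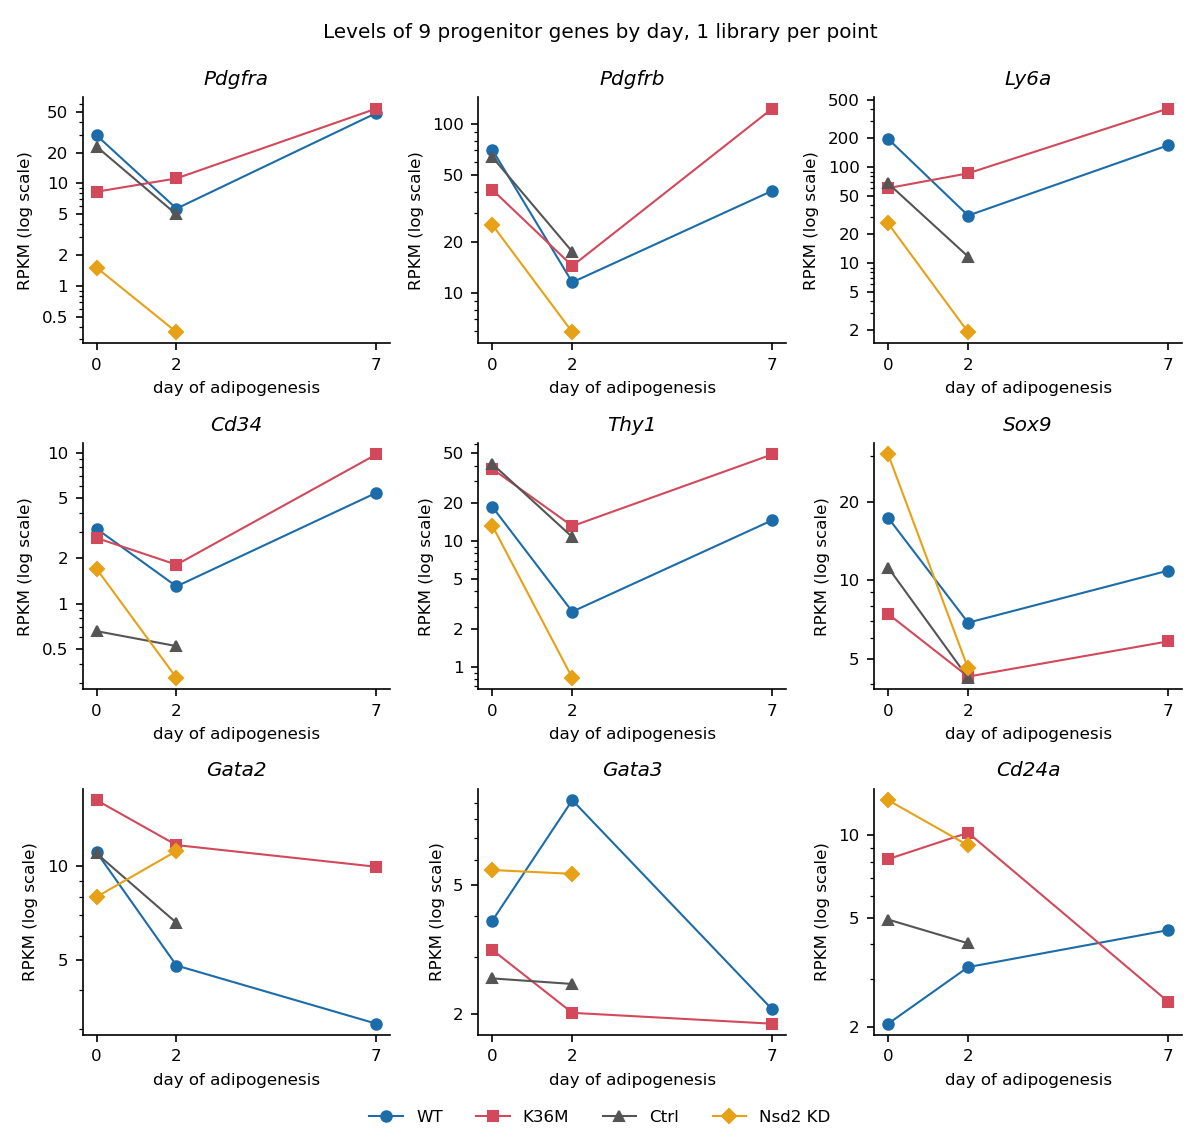
RPKM on a log axis against the day of adipogenesis (D0, D2, D7) for the 9 counted genes, with 1 line per kind of cell and 1 library per point. *Pdgfra* and *Ly6a* dip at D2 in WT cells (5.68 and 31.3 RPKM) but not in K36M cells (11.2 and 86.3 RPKM), and both also drop in *Nsd2* KD cells (to 0.354 and 1.91 RPKM).

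The decrease at D2 did not last in WT cells. From D2 to D7, 5 of the 9 genes were over 2-fold higher (*Pdgfra*, *Pdgfrb*, *Ly6a*, *Cd34*, and *Thy1*) and *Gata3* was over 2-fold lower, while 22.4% of all genes above 0 were higher and 12.2% were lower. The log2 ratio of D7 to D2 was 3.10 (2.98 to 3.22) for *Pdgfra* and 2.44 (2.29 to 2.58) for *Ly6a*. At D7 against D0, only *Gata2* was still over 2-fold lower, with a log2 ratio of -1.83 (-2.11 to -1.56), and *Cd24a* was over 2-fold higher, with 1.13 (0.70 to 1.56). Over all genes above 0, 17.4% were lower and 15.6% higher at D7 than at D0. With a pseudocount of 1 added to each RPKM, *Cd24a* was no longer over 2-fold higher. These 3 comparisons share libraries, so the same D2 value sets both the fall and the return.

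*Acta2* moved in the same way, with 529, 7.73, and 80.7 RPKM over the 3 days for WT cells and 424, 57.5, and 204 RPKM for K36M cells. It fell from 1190 to 7.00 RPKM in Ctrl cells and from 126 to 5.41 RPKM in KD cells. Of the 5 mural markers, 3 were over 2-fold lower and 1 over 2-fold higher at D2 in WT cells, while 25.2% of all genes were lower and 13.6% higher. Their summed RPKM went from 547 to 33.9, and *Acta2* alone made up 529 RPKM of the sum at D0. The part of mural or myofibroblast-like cells in the levels of the progenitor markers was not tested.

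In K36M cells the loss at D2 was smaller. Only *Pdgfrb* and *Thy1* of the 9 genes were over 2-fold lower at D2 than at D0 and none was higher, while 19.6% of genes were lower and 16.5% higher. The median log2 ratio of the 9 genes was -0.58, compared with -0.07 over all genes. *Pdgfrb* fell by 1.50 on the log2 scale (interval -1.60 to -1.40) and *Thy1* by 1.51 (-1.70 to -1.32). *Pdgfra* had a log2 ratio of 0.44 (0.31 to 0.56) and *Ly6a* of 0.51 (0.38 to 0.64), both above 0 and within 2-fold.

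The change from D0 to D2 was then subtracted between cells, with a counting interval from the 4 read counts. The K36M minus WT difference was 3.17 (2.98 to 3.35) for *Ly6a* and 2.81 (2.64 to 2.98) for *Pdgfra* on the log2 scale. It was 1.26 (0.90 to 1.63) for *Thy1*, 1.11 (0.98 to 1.25) for *Pdgfrb*, 0.72 (0.48 to 0.97) for *Gata2*, 0.69 (0.07 to 1.31) for *Cd34*, and 0.54 (0.28 to 0.80) for *Sox9*. These 7 genes thus all lost less in K36M than in WT cells, with intervals above 0. For *Gata3* the difference was -1.89 (-2.31 to -1.46), and for *Cd24a* it was -0.37, with an interval of -0.86 to 0.11 that included 0. When the Ctrl cells took the place of the WT cells, *Pdgfra* and *Ly6a* had differences of 2.63 and 3.05, *Gata3* went to -0.59, *Thy1* to 0.43, *Pdgfrb* to 0.37, *Gata2* to 0.25, and *Cd34* turned to -0.26.

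The smaller loss went with lower starting levels for some genes. At D0, K36M cells were over 2-fold lower than WT cells for *Pdgfra*, *Ly6a*, and *Sox9* and over 2-fold higher for *Thy1* and *Cd24a*, while 12.0% of genes were lower and 14.8% higher. The log2 ratio was -1.83 (-1.93 to -1.73) for *Pdgfra* and -1.70 (-1.81 to -1.60) for *Ly6a*. For *Ly6a* the Ctrl library differed from the WT library at D0 by a similar amount, -1.54 (-1.64 to -1.44), whereas for *Pdgfra* it differed by -0.37 (-0.44 to -0.30). *Thy1* was just past the threshold at 2.01-fold, and it was no longer called after each pair of libraries was rescaled by the median ratio or with a pseudocount of 1.

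At D2, K36M cells had over 2-fold more *Ly6a*, *Thy1*, *Gata2*, and *Cd24a* than WT cells and over 2-fold less *Gata3*, while 22.2% of genes were higher and 9.9% lower. *Pdgfra* was just inside the threshold at 1.98-fold higher. The log2 ratio was 2.27 (1.93 to 2.63) for *Thy1*, 1.46 (1.30 to 1.62) for *Ly6a*, 1.28 (1.07 to 1.49) for *Gata2*, and -2.19 (-2.54 to -1.85) for *Gata3*. The Ctrl library differed from the WT library at D2 by similar amounts for *Thy1*, 1.97 (1.64 to 2.32), and *Gata3*, -1.89 (-2.15 to -1.64). For *Ly6a* it differed in the opposite direction, -1.42 (-1.67 to -1.18), and for *Gata2* by 0.46 (0.24 to 0.67). The median over the 9 genes was 0.98, compared with 0.11 over all genes.

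By D7, K36M cells exceeded WT cells over 2-fold in *Pdgfrb*, *Ly6a*, *Thy1*, and *Gata2*, and none of the 9 genes was over 2-fold lower, while 19.7% of genes were higher and 13.2% lower. The largest log2 ratios were 1.74 (1.56 to 1.92) for *Thy1*, 1.67 (1.39 to 1.97) for *Gata2*, and 1.62 (1.56 to 1.68) for *Pdgfrb*. *Pdgfra* had reached similar levels, with a log2 ratio of 0.14 (0.08 to 0.21) that was of the size of the median shift of all genes between these libraries, 0.11. *Sox9* remained below the WT level with a log2 ratio of -0.91 (-1.11 to -0.71), which became an over 2-fold decrease after rescaling by the median ratio.

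Within K36M cells, *Pdgfra*, *Pdgfrb*, *Ly6a*, *Cd34*, and *Thy1* rose over 2-fold from D2 to D7 and *Cd24a* fell over 2-fold (21.5% of genes higher and 14.9% lower). From D0 to D7, *Pdgfra*, *Pdgfrb*, *Ly6a*, and *Cd34* were over 2-fold higher and *Cd24a* was over 2-fold lower (18.6% of genes higher and 16.0% lower). The D0 to D7 log2 ratio of *Ly6a* was 2.75 (2.65 to 2.85) in K36M cells and -0.22 (-0.30 to -0.14) in WT cells, and that of *Pdgfrb* was 1.60 (1.54 to 1.65) and -0.81 (-0.87 to -0.75). *Cd24a* went the opposite way, with -1.72 (-2.16 to -1.30) in K36M cells and 1.13 in WT cells. The D0 to D7 difference between K36M and WT cells was 2.97 (2.84 to 3.10) for *Ly6a*, 2.40 (2.32 to 2.49) for *Pdgfrb*, 1.97 (1.86 to 2.09) for *Pdgfra*, and -2.85 (-3.44 to -2.26) for *Cd24a*. These differences include the gaps already present at D0. The K36M to WT log2 ratio at D0 and D7 was -1.83 and 0.14 for *Pdgfra* and -1.70 and 1.27 for *Ly6a*. It was -0.79 and 1.62 for *Pdgfrb*, and 1.99 and -0.86 for *Cd24a*. Ctrl cells had no D7 library, so the other control could not be used here.

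**Figure D2:**
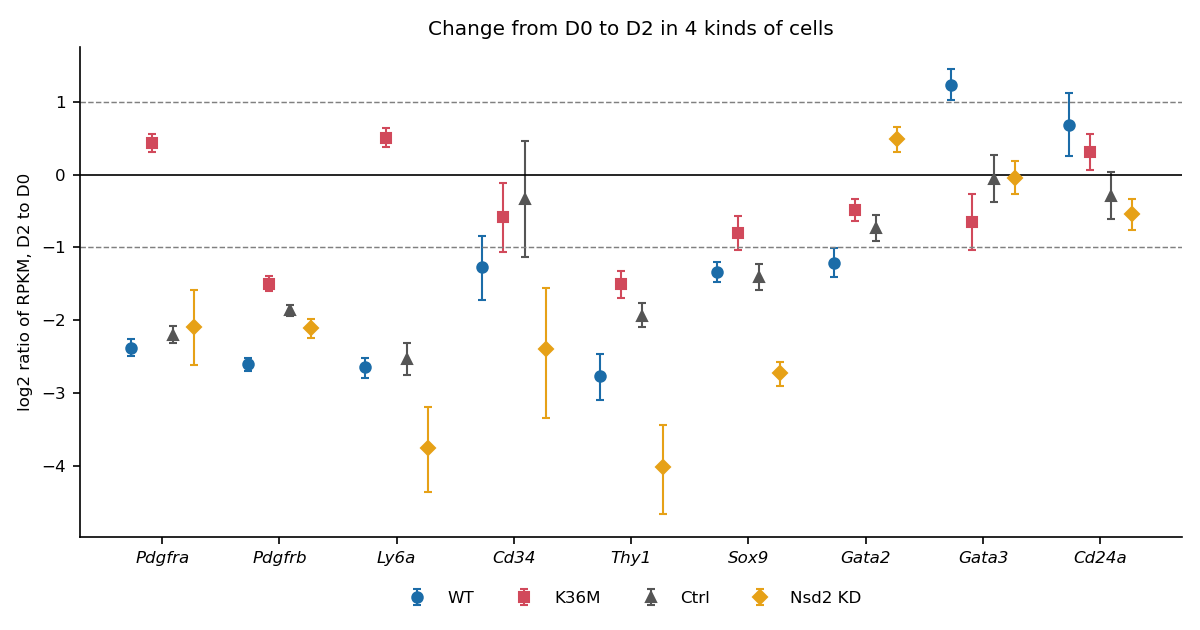
Log2 ratio of RPKM at D2 to D0 for the 9 counted genes in WT, K36M, Ctrl, and *Nsd2* KD cells, with bars for the 95% counting interval, a solid line at no change, and dashed lines at 2-fold. The K36M points of *Pdgfra* and *Ly6a* lie above 0 at 0.44 and 0.51, whereas the other 3 kinds of cells lie at -2.09 or below for both genes.

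In Ctrl cells most of the surface markers fell as well. From D0 to D2 in Ctrl cells, 5 of the 9 genes were over 2-fold lower (*Pdgfra*, *Pdgfrb*, *Ly6a*, *Thy1*, and *Sox9*) and none was higher, while 23.4% of genes were lower and 17.3% higher. The log2 ratio was -2.20 (-2.32 to -2.08) for *Pdgfra* and -2.53 (-2.76 to -2.31) for *Ly6a*. *Gata2* had a log2 ratio of -0.74 (-0.91 to -0.56).

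*Nsd2* KD cells did not retain the progenitor markers. Of the 9 genes, 6 were over 2-fold lower at D2 than at D0 (*Pdgfra*, *Pdgfrb*, *Ly6a*, *Cd34*, *Thy1*, and *Sox9*) and none was higher, while 24.5% of genes were lower and 16.9% higher. The log2 ratio was -4.02 (-4.67 to -3.44) for *Thy1*, -3.76 (-4.37 to -3.20) for *Ly6a*, and -2.73 (-2.90 to -2.57) for *Sox9*. The KD minus Ctrl difference of the changes was -2.09 (-2.69 to -1.48) for *Thy1*, -2.07 (-3.19 to -0.96) for *Cd34*, -1.33 (-1.57 to -1.08) for *Sox9*, -1.23 (-1.82 to -0.63) for *Ly6a*, and -0.25 (-0.40 to -0.10) for *Pdgfrb*. These 5 genes thus fell further in KD than in Ctrl cells, although for *Pdgfrb* the difference turned to 0.50 when WT cells took the place of the Ctrl cells. *Pdgfra* had a difference of 0.11, with an interval of -0.40 to 0.62 that included 0, and only *Gata2* had a difference above 0 with its interval, 1.22 (0.98 to 1.47). Few reads were left at D2 in KD cells, with 14 for *Cd34*, 25 for *Thy1*, 28 for *Ly6a*, and 41 for *Pdgfra*. A pseudocount of 1 moved the KD minus Ctrl difference to -0.91 for *Cd34*, -1.13 for *Thy1*, -0.77 for *Ly6a*, and 1.11 for *Pdgfra*. The KD log2 ratio of *Pdgfra* was -0.89 with a pseudocount of 1 and no longer over 2-fold, and that of *Thy1* was -2.97.

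Compared with Ctrl cells at D0, KD cells had over 2-fold less *Pdgfra*, *Pdgfrb*, *Ly6a*, and *Thy1* and over 2-fold more *Cd34*, *Sox9*, *Gata3*, and *Cd24a*, while 18.1% of genes were lower and 13.5% higher. The log2 ratio of *Pdgfra* was -3.92 (-4.15 to -3.70), a 15.2-fold lower level. At D2 the same 4 genes were over 2-fold lower and *Gata3* and *Cd24a* over 2-fold higher, while 18.5% of genes were lower and 12.0% higher. The log2 ratios at D2 were -3.81 (-4.31 to -3.36) for *Pdgfra*, -3.72 (-4.37 to -3.14) for *Thy1*, and -2.61 (-3.24 to -2.03) for *Ly6a*. *Cd34* and *Gata3* at D0, and *Gata3* at D2, were no longer called with a pseudocount of 1. *Acta2* was also lower in KD cells at D0, at 126 RPKM against 1190, and the part of this in the marker levels was not tested.

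At D2, *Thy1* and *Ly6a* exceeded their WT level over 2-fold in K36M cells and were over 2-fold lower in KD than in Ctrl cells. For *Thy1* the log2 ratio was 2.27 for K36M to WT and -3.72 for KD to Ctrl. For *Ly6a* it was 1.46 and -2.61. Between the 2 control libraries, Ctrl to WT, the log2 ratio at D2 was 1.97 for *Thy1* and -1.42 for *Ly6a*. *Pdgfra* (0.98 and -3.81) and *Pdgfrb* (0.33 and -1.58) were within 2-fold in the K36M comparison and lower in the KD comparison. *Cd34* was within 2-fold in both, with intervals of -0.06 to 1.03 and -1.75 to 0.29 that included 0. *Cd24a* was over 2-fold higher in both comparisons, with 1.61 (1.29 to 1.95) and 1.18 (0.89 to 1.48).

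**Figure D3:**
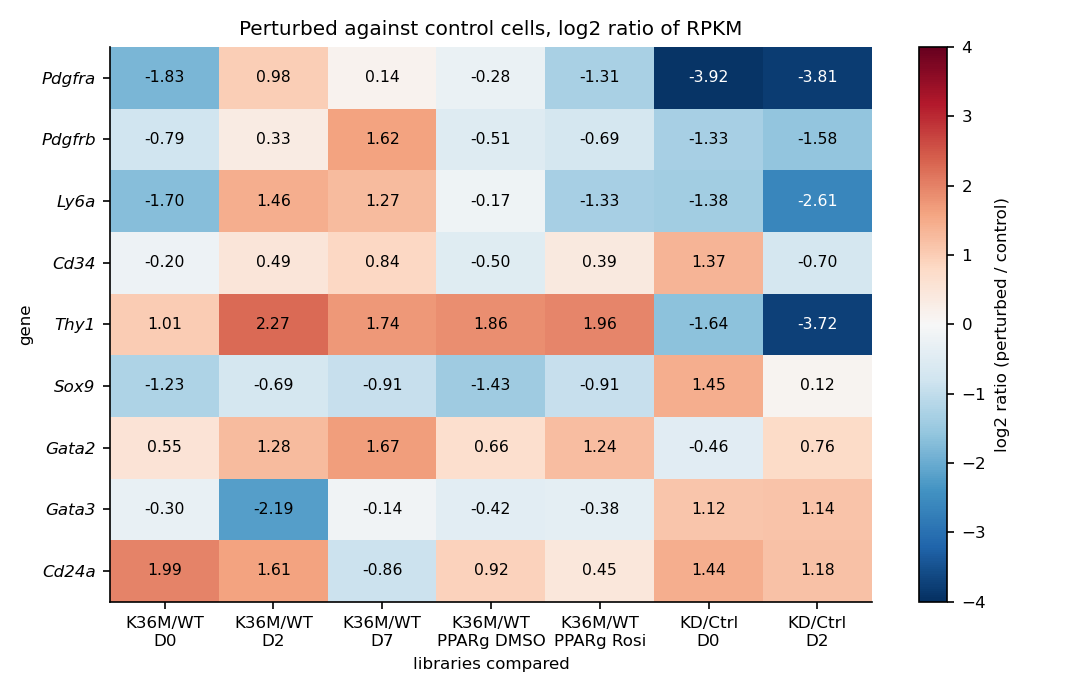
Log2 ratio of RPKM in perturbed to control cells for the 9 counted genes (rows) in 7 pairs of libraries (columns), each cell holding its value and coloured from blue (lower) to red (higher). *Thy1* is above 0 in all 5 K36M columns, from 1.01 to 2.27, and below 0 in both KD columns, at -1.64 and -3.72.

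In cells with ectopic PPARγ several of the markers were lower with Rosi than with DMSO. In WT cells, 4 of the 9 genes were over 2-fold lower with Rosi (*Cd34*, *Thy1*, *Sox9*, and *Gata2*) and none was higher, while 16.2% of genes were lower and 17.0% higher. In K36M cells, 5 were over 2-fold lower (*Pdgfra*, *Ly6a*, *Thy1*, *Sox9*, and *Cd24a*) and none was higher, while 15.0% of genes were lower and 18.3% higher. Over the 2 kinds of cells, *Thy1* and *Sox9* were called lower in both. A call in only 1 kind of cell does not by itself show a different response. The K36M minus WT difference of the response had an interval that included 0 for *Cd34* (-0.77 to 2.55) and *Cd24a* (-0.97 to 0.05). The interval excluded 0 for *Gata2* (0.33 to 0.83), and for *Pdgfra* and *Ly6a*, given below. The summed RPKM of the mural markers was also lower with Rosi, 1380 and 325 RPKM in WT cells and 971 and 285 RPKM in K36M cells, and its part in these values was not tested.

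In WT cells *Ly6a* went from 83.3 RPKM under DMSO to 79.4 RPKM under Rosi, and in K36M cells from 74.3 to 31.6 RPKM. The values of *Pdgfra* were 7.3 and 6.42 RPKM for WT cells, then 6.01 and 2.59 RPKM for K36M cells. Both genes thus held their level with Rosi in the WT library and fell in the K36M library. The K36M minus WT difference of the response was -1.16 (-1.37 to -0.96) for *Ly6a* and -1.03 (-1.28 to -0.77) for *Pdgfra*, the opposite sign to their D0 to D2 differences. With Rosi, K36M cells were over 2-fold lower than WT cells for *Pdgfra* and *Ly6a* and over 2-fold higher for *Thy1* and *Gata2*, while 12.6% of genes were lower and 28.4% higher. With DMSO only *Sox9* was over 2-fold lower and *Thy1* over 2-fold higher, while 8.31% of genes were lower and 23.9% higher.

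With Rosi, *Sox9* fell in WT cells from 7.75 to 2.33 RPKM, and in K36M cells from 2.87 to 1.24 RPKM. *Thy1* fell from 8.43 to 3.45 RPKM and from 30.6 to 13.4 RPKM. Their log2 ratios were -1.73 (-1.99 to -1.48) and -1.29 (-1.63 to -0.96) in WT cells, and -1.21 for *Sox9* and -1.19 for *Thy1* in K36M cells. *Gata2* had 10.3 and 5.14 RPKM in WT cells, just past 2-fold, and 16.3 and 12.1 RPKM in K36M cells. *Pdgfrb* had 59.4 and 40.0 RPKM in WT cells and 41.8 and 24.8 RPKM in K36M cells, within 2-fold in both.

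*Gata3* was the only counted gene with more RPKM after Rosi in both kinds of cells, 3.65 and 5.55 RPKM in WT and 2.73 and 4.27 RPKM in K36M cells, within 2-fold. *Cd24a* had 4.15 and 2.76 RPKM in WT cells and 7.84 and 3.78 RPKM in K36M cells. *Cd34* rested on 24 and 8 reads in WT cells (0.448 and 0.196 RPKM) and on 19 and 8 reads in K36M cells (0.316 and 0.256 RPKM), and the intervals of both ratios included 0. *Dpp4* had 3 and 0 reads in WT cells and 0 and 3 reads in K36M cells. With a pseudocount of 0.1 or of 1, 2 of the 4 genes called lower in WT cells were still called, and with a pseudocount of 1, 2 of the 5 in K36M cells.

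**Figure D4:**
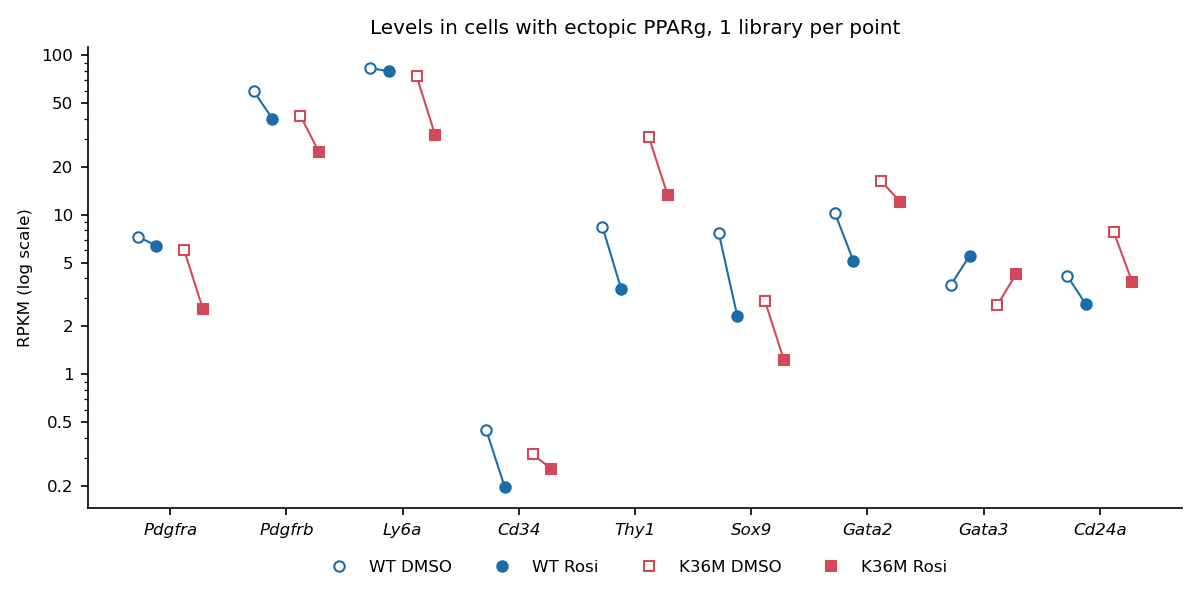
RPKM on a log axis of the 9 counted genes in cells with ectopic PPARγ, with open symbols for DMSO and filled symbols for Rosi, joined within WT (circles) and K36M (squares) cells, 1 library per point. *Ly6a* is nearly level in WT cells (83.3 and 79.4 RPKM) and drops in K36M cells (74.3 and 31.6 RPKM), and *Thy1* lies higher in K36M than in WT cells under both conditions.

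Genes that work with the progenitor markers were counted from lists of other precursor genes. From D0 to D2 the share of all genes above 0 that was lower and higher was 25.2% and 13.6% in WT, 19.6% and 16.5% in K36M, 23.4% and 17.3% in Ctrl, and 24.5% and 16.9% in KD cells. Some list genes had few reads, so each count is also given over the genes with at least 1 RPKM in 1 of the 2 libraries, called the detected genes here. Some genes, such as *Icam1*, *F3*, *Dlk1*, and *Cd55*, are on more than 1 list, so the counts of different lists are not separate evidence.

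Of 15 other progenitor surface markers, 8 were over 2-fold lower and 3 higher from D0 to D2 in WT cells, with a median log2 ratio of -1.54. In K36M cells 4 were lower and 2 higher, in Ctrl cells 9 and 3, and in KD cells 5 and 1 of the 13 above 0. Among the detected genes, 7 were lower and 2 higher of 10 in WT, 3 and 1 of 11 in K36M, 7 and 1 of 10 in Ctrl, and 4 and 0 of 10 in KD cells. *Vcam1*, an adhesion molecule of stromal cells, had 37.9 RPKM at D0 and 3.74 at D2 in WT cells, and 26.7 and 10.0 RPKM in K36M cells. *Pdpn*, which encodes podoplanin, had 109 and 12.1 RPKM in WT and 156 and 41.5 RPKM in K36M cells. *F3*, the tissue factor gene, had 227 and 28.6 RPKM in WT and 76.6 and 38.7 RPKM in K36M cells. *Icam1*, an adhesion molecule of committed preadipocytes, had 0.371 RPKM in WT and 5.63 RPKM in K36M cells at D2. At D7, 8 of these 15 genes were over 2-fold higher and 3 lower in the K36M than in the WT library, while 19.7% of all genes were higher and 13.2% lower. Of the 12 detected, 7 were higher and 2 lower.

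The PDGF ligands changed with their receptors only in part. *Pdgfc*, a ligand of PDGFRα, had 14.2 RPKM at D0 and 4.62 at D2 in WT cells, and 14.1 and 15.1 RPKM in K36M cells. *Pdgfa*, another such ligand, had 11.2 and 9.85 RPKM in WT cells and 16.7 and 14.5 RPKM in K36M cells. *Pdgfb* and *Pdgfd*, the other ligand genes, were at or below 2.55 RPKM in every library. Of the 4 ligands, 3 were over 2-fold lower at D2 in WT cells, 1 in K36M, 2 in Ctrl, and 3 in KD cells, where 1 was higher. Among the detected ligands, 1 of 2 was lower in WT cells, 0 of 2 in K36M, 0 of 2 in Ctrl, and 3 of 3 in KD cells.

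Among 18 fibroadipogenic and mesenchymal transcription factors, 6 were over 2-fold lower and 4 higher from D0 to D2 in WT cells (17 above 0), and 2 were lower and 6 higher in K36M cells. *Prrx1*, a homeobox factor of mesenchymal progenitors, had 97.4 and 21.0 RPKM in WT cells and 47.5 and 29.7 RPKM in K36M cells. *Snai2*, which encodes Slug, had 91.9 and 14.6 RPKM in WT cells and 52.1 and 33.3 RPKM in K36M cells. *Osr1*, a factor of fibroadipogenic progenitors, had 29.6 and 3.75 RPKM in WT cells and 1.60 and 0.476 RPKM in K36M cells, so it was lower in K36M cells at both days. *Zfp521*, known for restraining adipogenesis, had 7.98 and 1.97 RPKM in WT cells and 2.86 and 3.33 RPKM in K36M cells. In Ctrl cells 8 of the 17 factors above 0 were lower and 1 higher, and in KD cells 5 and 1 of 16. Among the detected factors, 5 were lower and 3 higher of 15 in WT, 1 and 5 of 16 in K36M, 6 and 1 of 15 in Ctrl, and 4 and 1 of 14 in KD cells.

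Of 18 genes on a list of other repressors of adipogenesis, 6 were over 2-fold lower and 1 higher at D2 in WT cells, and 5 were lower and 4 higher in K36M cells. Whether each listed gene, such as *Tcf7l1* or *Id2*, restrains adipogenesis in these cells was not tested. *Dlk1*, the gene of Pref-1, had 27.6 and 6.09 RPKM in WT and 21.7 and 17.4 RPKM in K36M cells. *Rbpj*, the DNA-binding partner of Notch, had 50.4 and 5.19 RPKM in WT and 48.0 and 10.7 RPKM in K36M cells. *Zfpm2*, a GATA cofactor, had 28.5 and 4.59 RPKM in WT and 14 and 7.08 RPKM in K36M cells. *Klf2* had 8.03 and 1.64 RPKM in WT and 8.90 and 2.11 RPKM in K36M cells. *Dlk1* in KD cells stood apart at 171 RPKM at D0, against 38.1 in Ctrl cells, and at 27.9 RPKM at D2, against 3.51. In Ctrl cells 6 of the 18 were lower and 2 higher, and in KD cells 2 and 3. Among the detected genes, 5 were lower and 1 higher of 17 in WT, 5 and 4 of 18 in K36M, 5 and 2 of 17 in Ctrl, and 2 and 2 of 16 in KD cells.

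*Gata4* and *Gata6* were the other GATA genes above 1 RPKM. *Gata4* had 1.25 RPKM at D0 and 0.633 at D2 for WT cells, and 5.0 and 2.26 RPKM for K36M cells. *Gata6*, another GATA factor gene, rose by D2 to 14.4 RPKM from 6.03 in WT cells and to 11.6 RPKM from 5.33 in K36M cells. Of the 4 other GATA genes, 3 were above 0 and 1 was lower and 1 higher in WT cells. Of 8 other SOX genes, 1 was lower and 1 higher in WT cells and 3 were lower and 3 higher in K36M cells. *Sox4* had 31.9 RPKM in WT and 15.7 RPKM in K36M cells at D2, and *Sox11* had 9.13 and 1.97 RPKM. In Ctrl cells 1 of these GATA genes was lower and 0 were higher, and 1 SOX gene was lower and 1 higher. In KD cells 1 GATA gene was higher, and 2 SOX genes were lower and 4 higher. Several of these rest on few reads, and among the detected SOX genes 0 of 5 were called in WT cells, 1 was lower and 1 higher of 4 in K36M, 1 was lower and 0 higher of 5 in Ctrl, and 2 were lower and 2 higher of 5 in KD cells. Of the 2 detected GATA genes, 0 were lower and 1 higher in WT, 1 was lower and 1 higher in K36M, 0 were called in Ctrl, and 1 was higher in KD cells.

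Among 11 genes known from DPP4-positive interstitial progenitors, 8 were over 2-fold lower and 1 higher from D0 to D2 in WT cells, although *Dpp4* itself was not detectable. The count was 4 lower and 1 higher in K36M cells, 5 and 2 in Ctrl cells, and 5 and 3 in KD cells. Among the detected genes, 4 were lower and 1 higher of 5 in WT, 3 and 1 of 7 in K36M, 3 and 0 of 5 in Ctrl, and 5 and 1 of 8 in KD cells. *Anxa3*, an annexin gene, had 124 and 4.39 RPKM in WT cells and 205 and 24.4 RPKM in K36M cells. *Sema3c*, a semaphorin gene, had 26.1 and 2.08 RPKM in WT and 3.02 and 1.63 RPKM in K36M cells. *Fbn1*, which encodes fibrillin, had 184 and 30.8 RPKM in WT and 77.4 and 58.7 RPKM in K36M cells. *Creb5* had 7.93 and 1.00 RPKM in WT cells and 6.66 and 0.611 RPKM in K36M cells.

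Among 11 genes of committed preadipocytes, 5 were over 2-fold lower and 4 higher at D2 in WT cells, and 0 were lower and 6 higher in K36M cells. The list mixes surface genes with early adipocyte genes, and those that rose in WT cells included *Fabp4*, from 37.6 to 3250 RPKM, and the basement membrane collagen gene *Col4a1*, from 76.6 to 458 RPKM. In K36M cells these went from 18.5 to 1470 and from 157 to 373 RPKM. In Ctrl cells 5 were lower and 5 higher, and in KD cells 4 and 1. The detected genes gave 5 and 4 of 11 in WT, 0 and 5 of 10 in K36M, 5 and 5 of 11 in Ctrl, and 3 and 1 of 8 in KD cells.

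**Figure D5:**
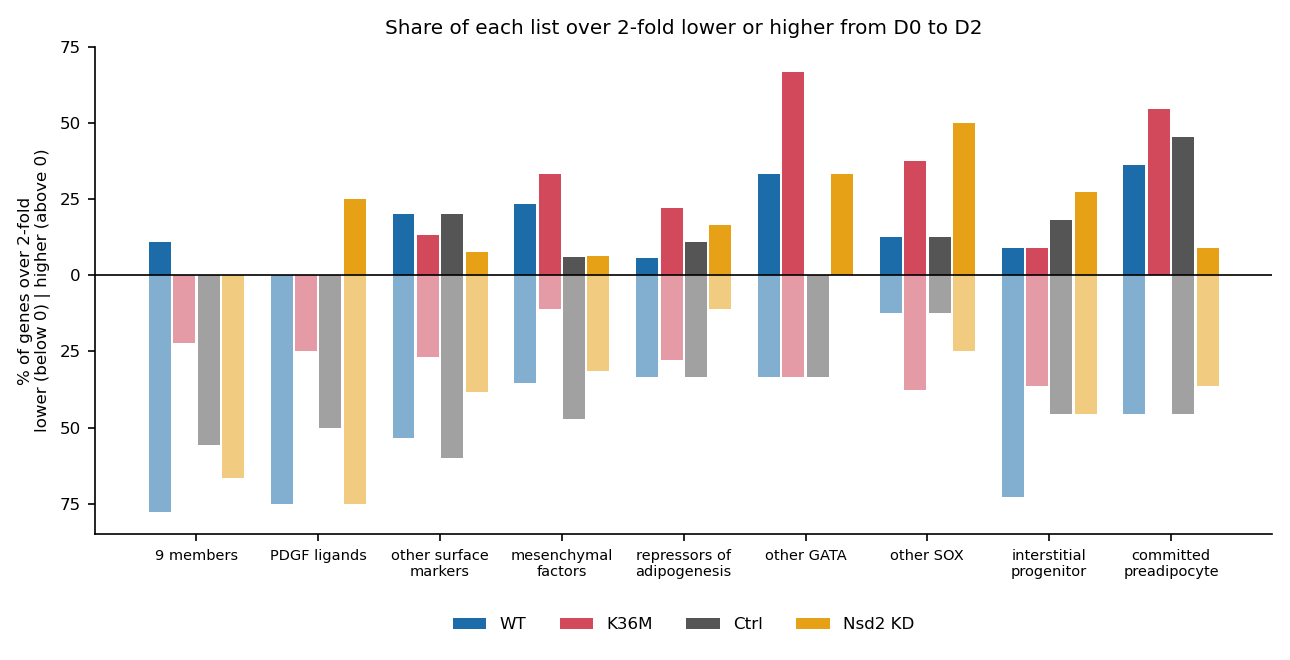
Percent of the genes above 0 in each list that were over 2-fold lower (bars below 0) or higher (bars above 0) at D2 than at D0, in WT, K36M, Ctrl, and *Nsd2* KD cells, with 1 library per condition. Of the 9 counted genes 77.8% were lower in WT and 22.2% in K36M cells, and of the other surface markers 53.3% and 26.7%.

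The progenitor genes varied together only in part over the 14 libraries. Pearson's r of log2(RPKM + 1) was 0.874 between *Pdgfra* and *Ly6a*, 0.844 between *Pdgfrb* and *Ly6a*, and 0.747 between *Pdgfrb* and *Thy1*. *Gata3* had an r of -0.706 to *Thy1* and -0.619 to *Pdgfra*, and of -0.023 to *Cd24a*. The libraries share cells, days, and treatments, so these values describe the 14 libraries and carry no p-value. Among 8533 genes with a mean of at least 5 RPKM, the gene most like *Ly6a* was *Mmp19* (r = 0.98), a matrix metalloproteinase gene that ranged from 0.899 to 42.0 RPKM. The most like *Pdgfra* was *Gypc* (r = 0.972), followed by *Nab1* (0.942), and the most like *Pdgfrb* was *Tspan4* (0.94). For *Thy1*, *Sox9*, *Gata2*, and *Cd24a* the closest were *Tmem200b* (0.899), *Fam3c* (0.9), *Cops4* (0.853), and *Fxr2* (0.871).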

How the data were processed

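RNA was extracted with Trizol, mRNA was purified with Dynabeads, and Illumina libraries were sequenced. RPKM values were deposited by the authors, 29082 RefSeq transcripts for each of 14 libraries, with 1 library per condition. The submitters' processing notes name CASAVA (v1.8.2) and mm9, and the program that counted reads is not given in the sources used here. RefSeq tables gave gene symbols for 28436 transcripts (97.8%), and of the transcripts of each of 23109 genes, the most abundant by mean RPKM was used. RPKM values of 26945 of 26946 transcripts above 0 in at least 2 libraries were whole multiples of the value of 1 read, to within 8.3e-07 of a read, which gave the reads and library totals (12213559 to 24365867).

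Ratios of RPKM in 17 comparisons were computed with exact Clopper-Pearson 95% counting intervals, and differences of log2 changes with normal intervals (Python 3.11.15, numpy 2.4.6, pandas 2.3.3, scipy 1.17.1, matplotlib 3.10.9), tested on simulated data. Intervals cover counting error only. Percentages of called genes are over genes above 0 in at least 1 of the 2 libraries. Groups came from the sample labels. Counts are over 9 genes because *Dpp4* had at most 5 reads. List genes were named by rule where they passed 2-fold between D0 and D2 of WT cells or between K36M and WT cells at D2 with at least 5 RPKM in 1 of the libraries (up to 4 per list, largest first), and other list genes were named after their values were seen. The genes and lists were chosen with earlier results of these data known. Coordinates are from GENCODE M1 on mm9, and promoter sequences are from RefSeq on GRCm38.p6.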

Additional observations from a re-analysis of the deposited data

Results flagged for a closer look

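In 9 instances a gene moved in opposite directions in the perturbed and control libraries, each from 1 library per condition, so the differences were not tested against replicates. From D0 to D2 these were *Pdgfra* and *Ly6a*, with K36M minus WT differences of 2.81 and 3.17 on the log2 scale (up in K36M and down in WT cells), *Gata3* with -1.89 (down in K36M and up in WT cells), and *Gata2* with a KD minus Ctrl difference of 1.22 (up in KD and down in Ctrl cells). From D0 to D7 they were *Pdgfrb* with 2.40, *Ly6a* with 2.97, and *Thy1* with 0.73 (up in K36M and down in WT cells), and *Cd24a* with -2.85 (down in K36M and up in WT cells). From D2 to D7 *Cd24a* had a difference of -2.48, down in K36M and up in WT cells. The D0 to D2 difference of *Ly6a* had the largest size of the 9. An instance was flagged only where the 95% counting intervals of both changes excluded 0. That the intervals of all 9 differences excluded 0 follows from this rule and adds no support. The *Gata3* and *Cd24a* instances rest on low levels, at most 9.17 and 13.4 RPKM in any library. The rise of *Gata3* by D2 was also absent from Ctrl cells, with a log2 ratio of -0.06 (-0.38 to 0.27). With Ctrl in place of WT cells its difference was -0.59, and those of *Pdgfra* and *Ly6a* were 2.63 and 3.05.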

How the results depend on the processing

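No paired analysis was possible because each condition had 1 library and the labels give no replicate numbers, and no replicate could be left out. Of the counts of genes past 2-fold, 225 were within 1.5 times the value given under the alternatives tried and 13 were not. With a pseudocount of 1, the number higher went to 0 for WT D0 to D7, to 1 for K36M against WT at D0, to 2 and 1 for KD against Ctrl at D0 and D2, and the number lower with Rosi went to 2 in WT and to 2 in K36M cells. With a pseudocount of 0.1, the number lower with Rosi in WT cells was also 2. After rescaling by the median ratio, the number higher was 1 for K36M against WT at D0 and the number lower was 1 at D7. With *Dpp4* counted (chosen after seeing the data), the number lower was 2 for K36M D0 to D7, 1 for K36M against WT at D7, and 2 for K36M against WT with DMSO, and the number higher was 1 for Rosi in K36M cells.

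For the D0 to D2 differences, 20 values moved by less than their counting error, 14 moved more, and 2 whose interval had excluded 0 turned to the opposite sign, called reversed here. With Ctrl in place of WT cells the K36M differences were 2.63 for *Pdgfra*, 0.37 for *Pdgfrb*, 0.43 for *Thy1*, 0.25 for *Gata2*, -0.59 for *Gata3*, and 0.60 for *Cd24a*, and *Cd34* reversed to -0.26. With WT in place of Ctrl cells the KD differences were -1.25 for *Thy1*, 1.69 for *Gata2*, -1.28 for *Gata3*, and -1.23 for *Cd24a*, and *Pdgfrb* reversed to 0.50. The K36M value of *Cd24a* (-0.37 with WT cells) and the KD value of *Gata3* (0.02 with Ctrl cells) also changed sign, from values whose interval included 0. With a pseudocount of 1 the K36M difference was 2.59 for *Pdgfra*, and the KD differences were 1.11 for *Pdgfra*, -0.91 for *Cd34*, and -1.13 for *Thy1*. The cause of the changes with the other control was not tested. A pseudocount pulls the ratios of low genes toward 0 by construction. Of the log2 ratios of single genes, 575 moved by less than their counting error and 37 moved more. No ratio over 2-fold changed sign. A pseudocount cannot change a sign, and rescaling shifted log2 ratios by at most 0.11, so neither could have reversed such a ratio. Depth limited *Dpp4* everywhere, and *Cd34* in the Ctrl, KD, and ectopic PPARγ libraries.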

Other observations

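Other precursor genes also stood apart in *Nsd2* KD cells before induction. The genes named here were chosen after their values were seen. At D0, 8 of 15 other progenitor surface markers were over 2-fold lower and 2 higher in KD than in Ctrl cells, and 9 of 17 mesenchymal transcription factors were lower and 1 higher, while 18.1% of all genes were lower and 13.5% higher. With at least 1 RPKM in 1 of the libraries, 5 of 11 surface markers were lower and 2 higher, and 7 of 15 factors were lower and 1 higher. *Vcam1* went from 28.5 RPKM in Ctrl to 1.42 RPKM in KD cells, and the homeobox gene *Prrx1* from 87.9 to 20.3 RPKM. Of 11 genes of DPP4-positive interstitial progenitors, 3 were lower and 5 higher. *Gata6* had 12.0 RPKM in Ctrl cells and 0.162 RPKM in KD cells at D0, and 19.2 and 1.86 RPKM at D2. *Dlk1*, the Pref-1 gene, was higher in KD cells at both days.

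Of the 4 PDGF ligands, 3 were over 2-fold higher and 1 lower in KD than in Ctrl cells at D0, where *Pdgfra* was lower. Over all genes, 13.5% were higher and 18.1% lower. Of the 3 ligands with at least 1 RPKM in 1 of the libraries, 3 were higher and 0 lower. At D0 in Ctrl cells *Pdgfc* was at 7.47 RPKM, *Pdgfa* at 12.3 RPKM, and *Pdgfb* at 0.31 RPKM, compared with 39.0, 28.1, and 2.55 RPKM in KD cells. The KD library at D0 held the highest level of each of these 3 ligands among the 14 libraries. *Pdgfd*, the ligand that was lower, had 0.395 RPKM in Ctrl cells and 0 reads in KD cells.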
